A study of Homo sapiens with 8 samples.

Results

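Genes of the YAP and TEAD pathway were examined across the 4 lines of the MCF10A breast cancer progression series. The set comprised 10 named genes of 56632 in the count table, listed by gene name with earlier results of these data known. YAP1 and WWTR1 (which encodes TAZ) are the transcriptional coactivators, TEAD1 is a DNA-binding partner, LATS2 and AJUBA act upstream of the coactivators, and CCN1 (CYR61), CCN2 (CTGF), ANKRD1, AMOTL2 and AXL are established target genes. All 10 genes passed the filter on low counts, ANKRD1 through its counts in M4 cells.

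M1 is MCF10A, a spontaneously immortalized and non-tumorigenic human mammary epithelial line. M2 (MCF10AT1k.cl2) was made from MCF10A with an activated T24-HRAS gene and was selected in xenografts. M3 (MCF10Ca1h) and M4 (MCF10CA1a.cl1) came from carcinomas that grew from M2 xenografts and M4 is the metastatic line of the series. Each group is a single established line, so it stands for that line and not for a tumour stage. All lines were grown as 3D acini in Matrigel for 8 days, as 2 biological replicates per line, in a medium that held horse serum, hydrocortisone, cholera toxin and insulin for every line. The M1 and M2 media contained EGF (10 ng/ml) and those of M3 and M4 did not (0 ng/ml), so line and EGF cannot be told apart when M3 or M4 is set against M1 or M2, whereas M2 against M1 and M4 against M3 were matched for EGF.

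In the Hippo pathway, the MST kinases and their cofactor SAV1 activate the LATS kinases, which phosphorylate YAP and TAZ and keep them out of the nucleus. When LATS activity is low, for example in spread cells on a stiff matrix, YAP and TAZ enter the nucleus and switch on genes through TEAD proteins. Several targets act back on the pathway, since AMOTL2 binds YAP and TAZ and LATS2 phosphorylates them. Activity of the pathway is set largely by phosphorylation and localization, which RNA levels do not measure. In bulk RNA, fewer cells of a kind and less RNA per cell cannot be told apart.

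The libraries held 69669945 to 107350288 counts. The expression values published with the study matched the library of the same label in 6 of 8 cases, but its second M1 sample matched the library labelled M2 replicate 1 (r = 0.972 across 164 genes) and its first M2 sample the library labelled M1 replicate 2 (r = 0.985). The sample labels were used here, and calls that were lost when these 2 libraries were exchanged are named beside the results. Under the sample labels the Spearman correlation across genes was 0.993 between the M2 replicates and 0.975 between the M1 replicates, while M1 replicate 2 correlated at 0.973 with M2 replicate 1. The pairs that the exchange would make replicates correlated at 0.968 (M1 replicate 1 with M2 replicate 1) and 0.971 (M1 replicate 2 with M2 replicate 2). HRAS counts did not separate M2 from M1 (log2 fold change of 0.10 ± 0.15 SE, adjusted p from edgeR = 0.736), although HRAS rose in M4 against M1 (1.23 ± 0.15, adjusted p = 0.00119). The epithelial markers were the basal genes KRT5, KRT14, KRT17, KRT6A and TP63 and the general epithelial genes CDH1 and EPCAM. Their summed level was 6775 to 7828 CPM in M4 and 8444 to 15265 in the other lines. In M4 against M1, 3 of the 7 fell, all of them basal (KRT5, KRT14 and TP63), and 1 rose (EPCAM). The median log2 fold change over the 7 was 0.09. Of the leukocyte markers, CD3E was at 0 in every library and PTPRC had at most 3 counts, while CD68, which is not restricted to leukocytes, rose in M4 against M1 (2.73 ± 0.66 on the log2 scale, adjusted p from edgeR = 0.0199). Fibroblast markers summed to 6.47 to 74.79 CPM, and 3 endothelial markers to at most 3.12. The part of these marker shifts in the results was not tested. CPM here are counts scaled to library totals adjusted by the TMM method. Differences between lines are log2 fold changes with their standard error from edgeR's quasi-likelihood fit (n = 2 libraries per line), with p-values adjusted by the Benjamini-Hochberg method over the 18431 genes tested. A difference was called, and is described as a rise or a fall, when the adjusted p lay under 0.05 and the log2 fold change went beyond 1 in either direction. Counts at an unadjusted p under 0.05 or by DESeq2 are given beside some edgeR counts. The matching shares of all tested genes are not set beside them, so they cannot be read as an excess or a lack.

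TEAD proteins recognise the MCAT element, whose core was searched here as GGAATG on both strands in the 250 bases before each annotated start (RefSeq, GRCh38.p14). Windows were present for 8 of the 10 genes. The motif occurred in 6 of their 12 windows and in 11.9% of the 35116 windows of all genes. It occurred in a window of CCN2, ANKRD1, AMOTL2, YAP1, AXL and AJUBA, and not in those of LATS2 or WWTR1, which says only that these letters are absent from these windows. Among the 10 genes, the targets with their highest levels in both M4 libraries were CCN2, ANKRD1, AMOTL2 and LATS2, itself a target. The window of LATS2 and that of the upstream start of AMOTL2 held no motif. Of the windows that held it, those of CCN2, ANKRD1, AMOTL2 and YAP1 are shown with the motif, or its reverse complement, in capitals. They lie at chr6:131951373-131951622 (CCN2, minus strand), chr10:90921088-90921337 (ANKRD1, minus strand), chr3:134374448-134374697 (AMOTL2, minus strand, the downstream of its starts) and chr11:102110197-102110446 (YAP1, plus strand).

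CCN2: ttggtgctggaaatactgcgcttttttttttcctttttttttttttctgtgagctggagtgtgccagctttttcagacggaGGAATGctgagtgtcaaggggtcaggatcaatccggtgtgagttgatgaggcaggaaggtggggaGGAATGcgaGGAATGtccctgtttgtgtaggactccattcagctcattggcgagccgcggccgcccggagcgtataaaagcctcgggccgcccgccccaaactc

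ANKRD1: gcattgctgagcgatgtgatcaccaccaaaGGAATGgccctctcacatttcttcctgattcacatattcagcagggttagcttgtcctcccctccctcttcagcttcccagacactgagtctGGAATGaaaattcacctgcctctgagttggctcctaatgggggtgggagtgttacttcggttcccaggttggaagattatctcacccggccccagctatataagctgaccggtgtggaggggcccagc

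AMOTL2: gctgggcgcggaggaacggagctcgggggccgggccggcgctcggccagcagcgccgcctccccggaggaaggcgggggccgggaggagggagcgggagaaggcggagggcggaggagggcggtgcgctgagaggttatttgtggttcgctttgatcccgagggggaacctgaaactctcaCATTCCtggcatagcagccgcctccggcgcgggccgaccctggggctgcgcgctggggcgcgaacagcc

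YAP1: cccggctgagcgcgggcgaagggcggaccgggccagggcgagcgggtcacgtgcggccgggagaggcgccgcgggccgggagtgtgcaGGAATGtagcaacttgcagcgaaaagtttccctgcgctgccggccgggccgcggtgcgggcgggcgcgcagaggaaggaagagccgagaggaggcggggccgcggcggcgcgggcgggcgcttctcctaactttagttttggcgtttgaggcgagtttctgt

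Counted from the start, the motif began at positions -169, -104 and -95 in the CCN2 window. It began at -220 and -128 in that of ANKRD1, at -69 in that of AMOTL2 and at -162 in that of YAP1. A match is a description of the sequence and not evidence of TEAD binding in these cells, which was not measured.

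The levels of the coactivators followed different courses. WWTR1 was higher in both carcinoma-derived lines than in M1 and M2, whereas the YAP1 level spanned a narrow range in all 8 libraries. WWTR1 (ENSG00000018408, GRCh37 chromosome 3, 149235022 to 149454501, minus strand) measured 47.3 and 72.6 CPM in the M1 replicates, 62.1 and 63.8 in the M2 replicates, 184 and 249 in the M3 replicates and 137 and 201 in the M4 replicates. Both M3 and both M4 libraries lay above all 4 M1 and M2 libraries, and M3 and M4 overlapped. WWTR1 rose in M3 against M1 by 1.85 ± 0.27 on the log2 scale, a 3.61-fold difference (SE, n = 2 per line, adjusted p from edgeR = 0.00400). It rose in M4 against M1 by 1.49 ± 0.27, or 2.82-fold (adjusted p from edgeR = 0.00557). Both differences were called under all 13 alternatives tried, including the exchange of the 2 libraries. Neither M4 against M3 (-0.36 ± 0.26, adjusted p from edgeR = 0.375) nor M2 against M1 (0.07 ± 0.26, adjusted p = 0.905) was called.

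YAP1 (ENSG00000137693, chromosome 11, 101981178 to 102104155, plus strand) measured 109 and 113 CPM in the M1 replicates, 134 and 140 in the M2 replicates, 110 and 123 in the M3 replicates and 103 and 122 in the M4 replicates. The 2 M2 libraries were the highest and the other lines overlapped. None of the 6 comparisons was called, and the widest was M2 against M1, at 0.30 ± 0.14 on the log2 scale (adjusted p from edgeR = 0.235). Per kilobase of exon, levels of different genes can be compared only roughly, since the length was that of all annotated exons and not of the transcripts expressed. The same limit holds for the TEAD shares and the ratio of CCN2 to CCN1 below. On this scale the ratio of WWTR1 to YAP1 was 0.328 and 0.486 in the M1 replicates and 0.349 and 0.345 in the M2 replicates. It was 1.27 and 1.53 in the M3 replicates and 1.01 and 1.25 in the M4 replicates. WWTR1 thus lay below YAP1 in every M1 and M2 library and above it in every M3 and M4 library, narrowly so in M4 replicate 1. The lengths used scale all libraries alike, so they bear on the position relative to 1 and not on the differences between lines.

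**Figure D1:**
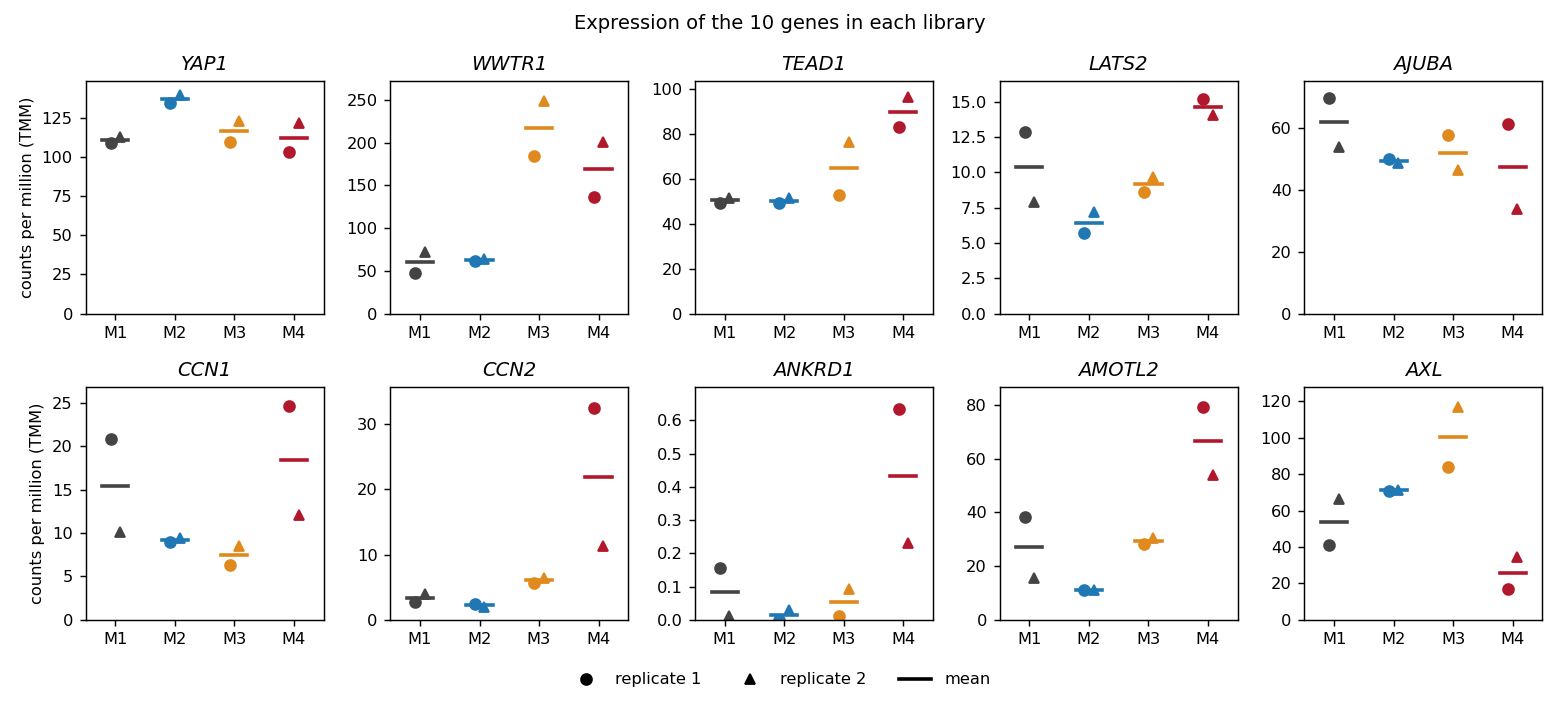
Expression of the 10 genes in CPM (TMM-scaled, linear axes from 0, a separate scale for each gene) in the 4 lines. Circles and triangles are replicates 1 and 2 and bars are line means. WWTR1 was high in M3 and M4, CCN2, ANKRD1 and AMOTL2 were highest in both M4 libraries, and AXL was lowest in M4.

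Among the TEAD genes, TEAD1 (ENSG00000187079, chromosome 11, 12695968 to 12966284, plus strand) measured 49.4 and 51.4 CPM in the M1 replicates, 49.2 and 51.5 in the M2 replicates, 53.0 and 76.2 in the M3 replicates and 83.0 and 96.2 in the M4 replicates. The 2 M4 libraries were the highest, and M1 and M2 overlapped. The difference of M4 from M1 was 0.83 ± 0.19 on the log2 scale, or 1.78-fold, with an adjusted p from edgeR of 0.0131, so it passed on p but stayed below the 2-fold limit used for calls. TEAD2, in contrast, fell in M4 against M1 (-2.28 ± 0.32 on the log2 scale, adjusted p from edgeR = 0.00198), a call made under all 13 alternatives. It also fell in M4 against M3 (-1.87 ± 0.31, adjusted p from edgeR = 0.00948), which was lost without M4 replicate 1 (adjusted p = 0.0737). Per kilobase of exon, TEAD1 made up 9.04% to 19.1% of the summed TEAD1 to TEAD4 level in M1, M2 and M3, and 25.3% and 25.0% in the M4 replicates. The share of TEAD2 was 34.9% to 50.1% in M1, M2 and M3, and 11.4% and 13.7% in M4. TEAD3 fell in M3 against M1 (-1.10 ± 0.15 on the log2 scale, adjusted p from edgeR = 0.00327), a call held in 11 of 13 alternatives and lost with the exchange or without M3 replicate 2. TEAD4 was higher in M3 and M4 than in M1 by 0.84 ± 0.18 and 0.71 ± 0.18 (adjusted p from edgeR = 0.0147 and 0.0191), below the fold limit.

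**Figure D2:**
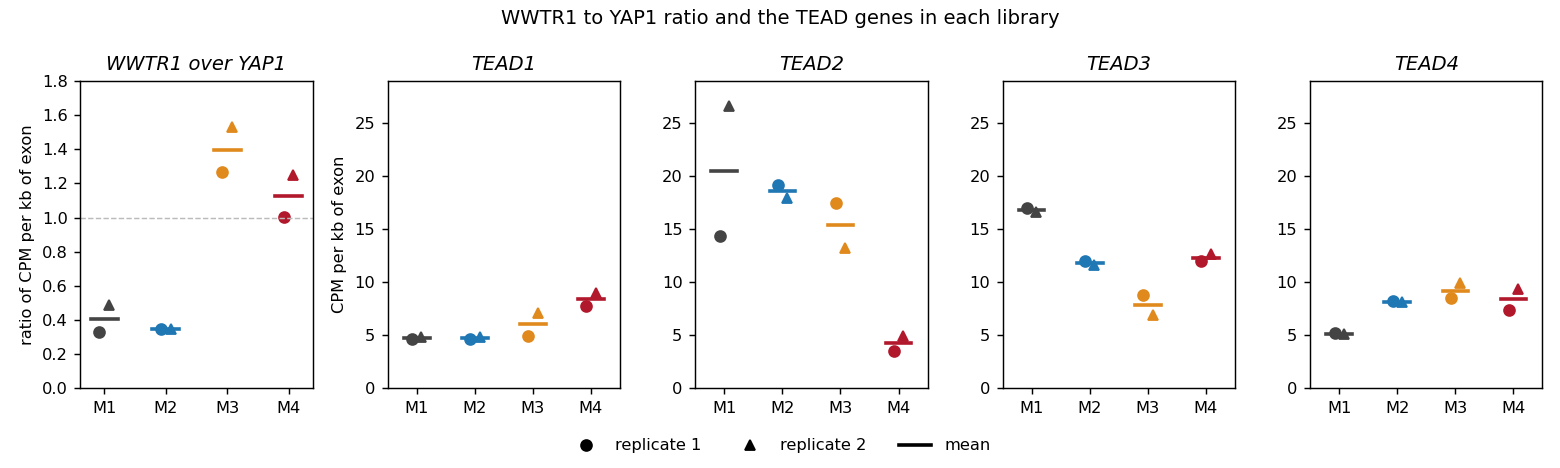
Left, ratio of WWTR1 to YAP1 in CPM per kilobase of exon (dashed line at 1), and right, the level of each TEAD gene in the same unit, with circles and triangles for replicates 1 and 2 and bars for line means. The ratio was above 1 in all M3 and M4 libraries and at most 0.486 in M1 and M2, and TEAD2 was lowest in both M4 libraries.

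The vestigial-like genes encode cofactors that bind TEAD proteins and compete with YAP and TAZ. VGLL3 received 957 and 208 counts in the M1 replicates, 304 and 168 in the M2 replicates, 37 and 21 in the M3 replicates and 1603 and 567 in the M4 replicates. It fell in M3 against M1 (-4.32 ± 0.79 on the log2 scale, adjusted p from edgeR = 0.00922) and was higher in M4 than in M3 by 4.92 ± 0.80 (adjusted p = 0.00934). The fall in M3 was called in 12 of 13 alternatives and lost without M3 replicate 2 (adjusted p from edgeR = 0.0649). Its size rested on the M1 replicates, at -2.84 on the log2 scale without M1 replicate 1 and -5.03 without M1 replicate 2. VGLL4 was not called in either line against M1, and VGLL2 had at most 2 counts. Of the 9 tested effector and TEAD partner genes, 1 rose and 1 fell in M4 against M1 (WWTR1 and TEAD2), where 20.7% of all tested genes were called in either direction, with a median log2 fold change of 0.02 beside -0.02 over all genes tested. In M3 against M1, 1 rose and 2 fell (WWTR1, VGLL3 and TEAD3), against 13.5% of all tested genes called in either direction, with a median of -0.42 beside -0.02 over all genes.

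The target genes were not all called alike, and differences between genes were not tested. Against M1, CCN2 rose in M4, AMOTL2 also rose although with less stability, and CCN1 was not called. Against M3, the log2 fold changes in M4 were positive for CCN2 (1.86), CCN1 (1.30) and AMOTL2 (1.18), of which only CCN2 was called. That of AXL was negative (-1.96) and called. CCN2 (ENSG00000118523, chromosome 6, 132269316 to 132272512, minus strand) encodes a matricellular protein. It measured 2.68 and 4.03 CPM in the M1 replicates, 2.48 and 1.90 in the M2 replicates, 5.62 and 6.45 in the M3 replicates and 32.4 and 11.3 in the M4 replicates. Both M4 libraries were above all others and both M3 libraries were above all M1 and M2 libraries, but the M4 replicates stood 1.52 apart on the log2 scale, a gap that 5.5% of tested genes reached in M4. CCN2 rose in M4 against M1 by 2.70 ± 0.49 on the log2 scale, or 6.52-fold (adjusted p from edgeR = 0.00575). This was called under all 13 alternatives, with log2 fold changes from 1.75 without M4 replicate 1 to 3.29 without M4 replicate 2. In M3 against M1 the difference was 0.85 ± 0.47 and was not called (adjusted p from edgeR = 0.228).

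Against M3, with no EGF in either medium, CCN2 rose in M4 by 1.86 ± 0.47 on the log2 scale, or 3.62-fold (adjusted p from edgeR = 0.0352). This call was held in 7 of 13 alternatives and rested on M4 replicate 1, without which the log2 fold change was 0.90 (adjusted p from edgeR = 0.197). It was also lost without M3 replicate 1 (adjusted p = 0.150) or M3 replicate 2 (adjusted p = 0.104), with the 2 libraries exchanged (adjusted p = 0.0942), with a replicate block (adjusted p = 0.0523) and without the M2 libraries in the fit (adjusted p = 0.0662).

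CCN1 (ENSG00000142871, chromosome 1, 86046444 to 86050272, plus strand), the paralog of CCN2, measured 20.8 and 10.1 CPM in the M1 replicates, 9.0 and 9.4 in the M2 replicates, 6.37 and 8.51 in the M3 replicates and 24.6 and 12.1 in the M4 replicates. The M1 and M4 libraries overlapped, and the M3 libraries were the lowest. M4 differed from M1 by 0.25 ± 0.41 on the log2 scale (adjusted p from edgeR = 0.677), and its sign turned without M1 replicate 2 (-0.18) or M4 replicate 1 (-0.34). M4 against M3 gave 1.30 ± 0.42 (adjusted p from edgeR = 0.0708). Per kilobase of exon the ratio of CCN2 to CCN1 was 0.204 and 0.632 in the M1 replicates, 0.437 and 0.321 in the M2 replicates, 1.40 and 1.20 in the M3 replicates and 2.09 and 1.47 in the M4 replicates, so that CCN2 exceeded CCN1 in the M3 and M4 libraries and in no M1 or M2 library. Of the other CCN genes, CCN5 (WISP2) fell in M4 against M1 (-5.40 ± 1.20 on the log2 scale, adjusted p from edgeR = 0.0134) and in M3 against M1 (-5.08 ± 1.18, adjusted p = 0.0223), called in 10 and 8 of 13 alternatives and in neither line with the exchange. Without M1 replicate 1 the log2 fold changes were -3.56 in M4 and -3.26 in M3, and without M1 replicate 2 they were -6.18 and -5.85. Without M3 replicate 1 that of M3 was -7.96, and without M3 replicate 2 it was -4.15. Its counts were 867 and 142 in the M1 replicates and 14 and 13 in those of M4. CCN3 was not called in either line against M1, and CCN4 and CCN6 were too low to be tested.

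ANKRD1 (ENSG00000148677, chromosome 10, 92671853 to 92680844, minus strand), a cardiac ankyrin repeat gene widely used as a YAP readout, was close to absent. It received 13 and 1 counts in the M1 replicates, 0 and 2 in the M2 replicates, 1 and 8 in the M3 replicates and 72 and 18 in the M4 replicates. Both M4 libraries were above all others. The fitted log2 fold change was 2.34 ± 1.27 against M1 (adjusted p from edgeR = 0.199) and 3.00 ± 1.33 against M3 (adjusted p = 0.158), and neither was called. Against M2 it was 4.99 (adjusted p from edgeR = 0.0586), also not called. With no filter on low counts M4 was called against M3 (adjusted p from edgeR = 0.0297) and M2 (adjusted p = 0.000661), and 3 of 11 alternatives in all, DESeq2 among them, called it against M2. None of 12 alternatives called M4 against M1.

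AMOTL2 (ENSG00000114019, chromosome 3, 134074189 to 134094321, minus strand), a junctional scaffold that retains YAP and TAZ, measured 38.2 and 15.7 CPM in the M1 replicates, 11.1 and 11.1 in the M2 replicates, 28.1 and 30.6 in the M3 replicates and 79.1 and 53.9 in the M4 replicates. Both M4 libraries were above all others, while M1 replicate 1 lay above M3 and M1 replicate 2 below it. AMOTL2 rose in M4 against M1 by 1.30 ± 0.38 on the log2 scale, or 2.47-fold (adjusted p from edgeR = 0.0344), which was held in 7 of 13 alternatives and was 2.10 without M1 replicate 1. The call was lost without M1 replicate 2 (0.80 on the log2 scale, adjusted p from edgeR = 0.0585), without M4 replicate 1 (1.01, adjusted p = 0.161), without M4 replicate 2 (1.57, adjusted p = 0.0584), with the 2 libraries exchanged (1.43, adjusted p = 0.126), with a fit restricted to M1 and M4 (adjusted p = 0.109) and without the M2 libraries (adjusted p = 0.0646). Against M3 the log2 fold change was 1.18 ± 0.38 and was not called (adjusted p from edgeR = 0.0704).

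AXL (ENSG00000167601, chromosome 19, 41725128 to 41767671, plus strand), a receptor tyrosine kinase for the ligand GAS6, went the other way. It measured 41.3 and 66.4 CPM in the M1 replicates, 70.7 and 71.3 in the M2 replicates, 83.8 and 117 in the M3 replicates and 17.1 and 34.6 in the M4 replicates. Both M4 libraries were below all others and both M3 libraries above all others. AXL fell in M4 against M3 (-1.96 ± 0.36 on the log2 scale, or 3.89-fold, adjusted p from edgeR = 0.0137), a call held in 11 of 13 alternatives and lost without M3 replicate 2 (adjusted p = 0.0513) or M4 replicate 1 (adjusted p = 0.0640). Against M1 the log2 fold change was -1.06 ± 0.36 and was not called (adjusted p from edgeR = 0.0559), although 6 of 13 alternatives called it. GAS6 fell in M4 against M1 (-1.71 ± 0.36 on the log2 scale, adjusted p from edgeR = 0.0109), a call held in 11 of 13 alternatives and lost with the exchange or without M4 replicate 1. MERTK, another receptor of the family, fell from low counts of 11 and 32 to 1 and 4 (-3.16 ± 0.99, adjusted p from edgeR = 0.0432), a call held in 6 of 12 alternatives and lost with the exchange. Its log2 fold change was -2.19 without M1 replicate 2, -2.31 without M4 replicate 1 and -4.66 without M4 replicate 2. TYRO3 and PROS1 were not called in M4 against M1.

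The 2 upstream genes were not called in M3 or M4 against M1. LATS2 (ENSG00000150457, chromosome 13, 21547175 to 21635725, minus strand), a kinase of YAP and TAZ and itself a target, measured 12.9 and 7.89 CPM in the M1 replicates, 5.71 and 7.19 in the M2 replicates, 8.63 and 9.69 in the M3 replicates and 15.2 and 14.1 in the M4 replicates. The M4 libraries were the highest and the M2 libraries the lowest. The difference of M4 from M1 was 0.50 ± 0.27 on the log2 scale (adjusted p from edgeR = 0.193), and that from M3 was 0.68 ± 0.27 (adjusted p = 0.120), so neither was called. Against M2 LATS2 rose in M4 by 1.18 on the log2 scale (adjusted p from edgeR = 0.0194), a call held in 7 of 12 alternatives. AJUBA (ENSG00000129474, chromosome 14, 23440386 to 23451760, minus strand), a LIM protein that inhibits LATS, measured 69.9 and 53.9 CPM in the M1 replicates, 50.2 and 48.8 in the M2 replicates, 57.9 and 46.4 in the M3 replicates and 61.3 and 33.7 in the M4 replicates. The M4 replicates were the farthest apart, and their range took in every M2 and M3 library. No comparison was called for AJUBA. A second protein-coding gene overlaps AJUBA on the same strand with up to 687 counts, so some AJUBA reads may have been split with it, the lowest AJUBA count being 2630.

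**Figure D3:**
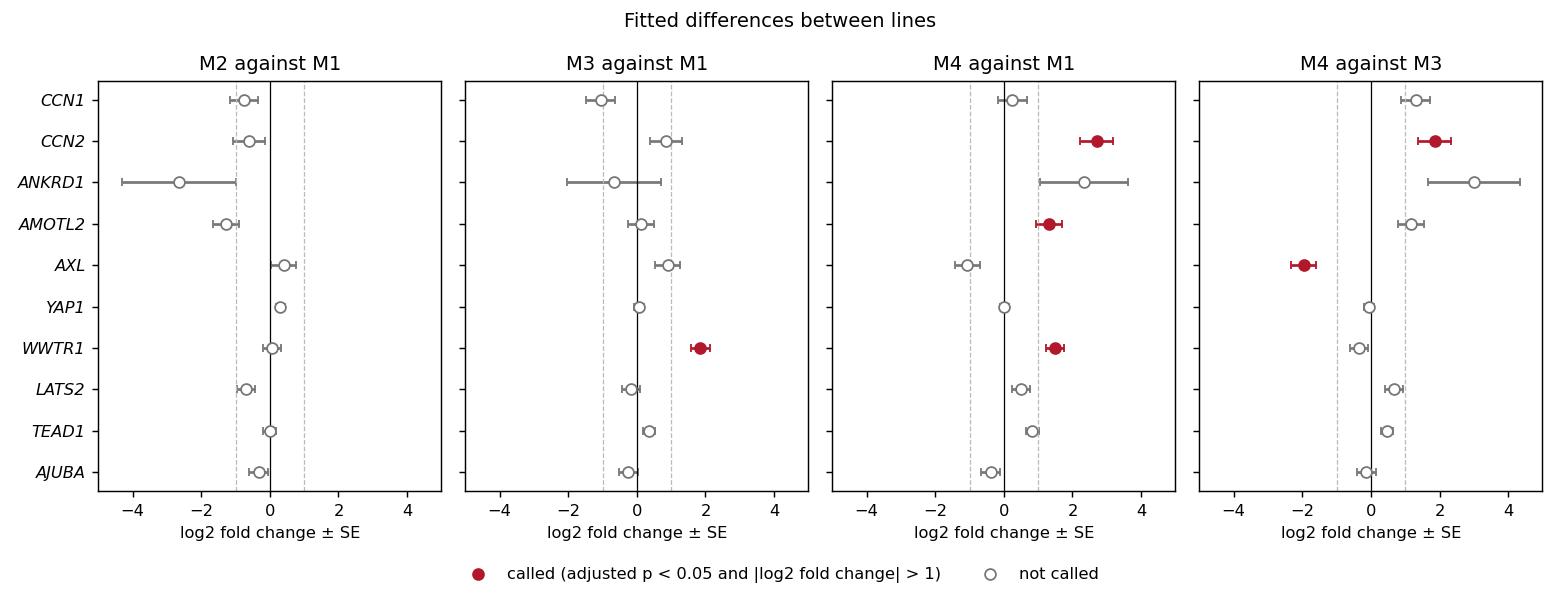
Fitted log2 fold changes with standard errors for the 10 genes in 4 comparisons of lines (n = 2 libraries per line), with called genes filled and dashed lines at a log2 fold change of 1 in each direction. WWTR1 was called in both M3 and M4 against M1, CCN2 in M4 against M1 and M3, AMOTL2 in M4 against M1, and AXL in M4 against M3.

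Counted by comparison, none of the 10 genes was called in M2 against M1 by edgeR, where 3.37% of all tested genes were called. At an unadjusted p under 0.05, 2 were lower in M2 (AMOTL2 and LATS2), and DESeq2 called 1 (AMOTL2, at -1.28 ± 0.38 with an adjusted p of 0.101 in edgeR). In M3 against M1, 1 of 10 was called higher, against 13.5% of all tested genes in either direction, 8.02% higher and 5.51% lower. In M4 against M1, 3 of 10 were called, all higher, against 20.7% of all tested genes, 9.48% higher and 11.2% lower. The median log2 fold change of the 10 genes was 0.66 in M4 against M1 and 0.10 in M3 against M1, beside -0.02 for all genes in each. These medians count ANKRD1 (2.34 in M4 against M1, not called), which passed the filter through its M4 counts. The 10 genes were also chosen with earlier results known, so the medians cannot be read as a test of the set. These comparisons share the M1 libraries and are not independent of each other.

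In M4 against M3, 2 of 10 were called, against 10.3% of all tested genes, 3.99% higher (here CCN2) and 6.3% lower (here AXL). In M3 against M2, 1 of 10 was called against 4.15% of all tested genes, namely WWTR1, which was higher by 1.78 ± 0.27 (adjusted p from edgeR = 0.0121) and lost its call without either M2 replicate or M3 replicate 2. In M4 against M2, 5 of 10 were called against 13.9% of all tested genes. They were CCN2 (3.31), AMOTL2 (2.59), WWTR1 (1.42) and LATS2 (1.18), all higher in log2 fold change, and AXL, which was lower (-1.46), with adjusted p from edgeR between 0.00433 and 0.0259. The M2 replicates were closer to each other than those of any other line, and without M2 replicate 1 only 1 of the 10 was called, without M2 replicate 2 none by edgeR. With either M4 replicate left out, 3 of the 10 were called. The 2 calls nearest the threshold, LATS2 and AXL, were also lost when M1 replicate 2 and M2 replicate 1 were exchanged. AXL was called in 8 of 12 alternatives.

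The wider set of 22 YAP and TAZ target genes includes LATS2 and the 5 targets above. Of the 22, 7 rose and 4 fell in M4 against M1, where 9.48% of all tested genes were called higher and 11.2% lower. The median log2 fold change was 0.26 beside -0.02 over all genes. The medians of this set count ANKRD1, which passed the filter through its M4 counts. The largest rises were in NT5E, the ectonucleotidase CD73 (5.44 ± 0.31, adjusted p from edgeR = 9.62e-05), CCN2, and F3, the tissue factor of coagulation (2.17 ± 0.47, adjusted p = 0.0134). The largest falls were in TGFB2, a TGF-beta ligand (-2.0 ± 0.64, adjusted p from edgeR = 0.0472), RBMS3 (-1.91 ± 0.38, adjusted p = 0.00794) and ARHGEF17 (-1.54). With the 2 libraries exchanged, 3 of the 22 were called in M4 against M1, all higher, where calls over all genes went from 3821 to 1559. NT5E lost its call under the exchange (adjusted p from edgeR = 0.105), as did F3, RBMS3, ARHGEF17 and TGFB2, and TGFB2 was called in 6 of 13 alternatives, with a log2 fold change of -3.64 without M4 replicate 1 and -1.26 without M4 replicate 2. In M3 against M1, 3 of the 22 rose (NT5E at 5.61, GADD45A at 1.57 and NUAK2 at 1.41) and ARHGEF17 fell (-1.26). Beside this, 8.02% of all tested genes were called higher and 5.51% lower, and the median of the 22 was 0.12. NT5E and GADD45A were called in 12 of 13 alternatives and ARHGEF17 in 11, but NUAK2 in only 5. With the exchange, edgeR called 0 of the 22 in M3 against M1, where calls over all genes went from 2494 to 219. Under the sample labels 7 of the 22 had an unadjusted p under 0.05 in that comparison, and DESeq2 called 5. In the comparisons matched for EGF the edgeR calls were mostly lower, whereas counts at looser thresholds were not in M4 against M3. At an unadjusted p under 0.05, 8 of the 22 were higher and 4 lower in M4 against M3. DESeq2 called 4 higher and 4 lower in that comparison, and 14 had a log2 fold change above 0, with 8 below. For M2 against M1, 3 were higher and 6 lower at an unadjusted p under 0.05, and DESeq2 called 1 higher and 3 lower. The shares of all tested genes at these looser thresholds are not set beside them. These counts thus cannot be read as an excess or a lack. In M4 against M3, 1 of the 22 rose (CCN2) and 4 fell (TGFB2, RBMS3, AXL and PTPN14), against 3.99% of all tested genes higher and 6.3% lower, although the median log2 fold change was 0.42. In M2 against M1, 1 rose (NT5E) and 2 fell (PTPN14 and ARHGEF17), against 3.37% of all tested genes called, with a median of -0.59. With the exchange, 1 of the 22 was called in M4 against M3, where calls over all genes went from 1897 to 830. All 3 calls in M2 against M1 were lost, where calls over all genes went from 622 to 0.

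Of 33 Hippo kinases and upstream regulators, 4 rose and 2 fell in M4 against M1, beside 20.7% of all tested genes called, with a median log2 fold change of 0.38. MAP4K4, a kinase that phosphorylates LATS, rose by 2.11 ± 0.21 on the log2 scale (adjusted p from edgeR = 0.000579) and was called in all 13 alternatives. AMOTL2 and WWC1 (KIBRA, a scaffold upstream of LATS, 1.08 ± 0.23, adjusted p from edgeR = 0.00991) also rose, while WTIP, a relative of AJUBA, fell (-1.80 ± 0.39, adjusted p = 0.0121), as did PTPN14 (-1.13 ± 0.16, adjusted p = 0.00232). In M3 against M1, 3 rose (MAP4K2 at 1.46, SAV1 at 1.43 and MAP4K4 at 1.29), beside 8.02% of all tested genes called higher, and none was called lower by edgeR, where 3 were lower at an unadjusted p under 0.05 and 1 by DESeq2. The fourth rise in M4 was that of CRB3, a polarity gene. With the exchange MAP4K4 and WWC1 were still called in M4 and SAV1 in M3, while AMOTL2, CRB3, WTIP and PTPN14 in M4 and MAP4K2 and MAP4K4 in M3 lost their calls. Of 16 tested genes of the MRTF and SRF pathway, which also responds to actin and shares many targets with YAP, none rose by edgeR in M4 against M1. Beside this, 9.48% of all tested genes were called higher. At an unadjusted p under 0.05, 4 of the 16 were higher, and DESeq2 called 2 higher. Of the 16, 2 fell, where 11.2% of all tested genes were called lower. They were ACTG2, a smooth muscle actin (-4.27 ± 1.00 on the log2 scale, adjusted p from edgeR = 0.0155), and MYL9, a myosin light chain (-3.42 ± 1.10, adjusted p = 0.0485). Both had few counts in either line. ACTG2 went from 11 and 58 counts in the M1 replicates to 3 and 1 in those of M4, and MYL9 from 42 and 20 to 7 and 0. MYL9 was called in 5 of 12 alternatives and ACTG2 in 8 of 12, neither with the exchange. ACTG2 stood at -2.62 on the log2 scale when M1 replicate 2 was left out and at -5.0 when M1 replicate 1 was, whereas the value of MYL9 was -7.97 without M4 replicate 1 and -2.56 without M4 replicate 2. M3 differed from M1 in 1 called gene of the 16, beside 13.5% of all tested genes called. It was the cytoplasmic actin ACTB, which rose by 1.13 ± 0.19 on the log2 scale (adjusted p from edgeR = 0.00718). That call was held in 10 of 13 alternatives and lost with the exchange, with only the 2 lines in the fit or without M1 replicate 1.

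**Figure D4:**
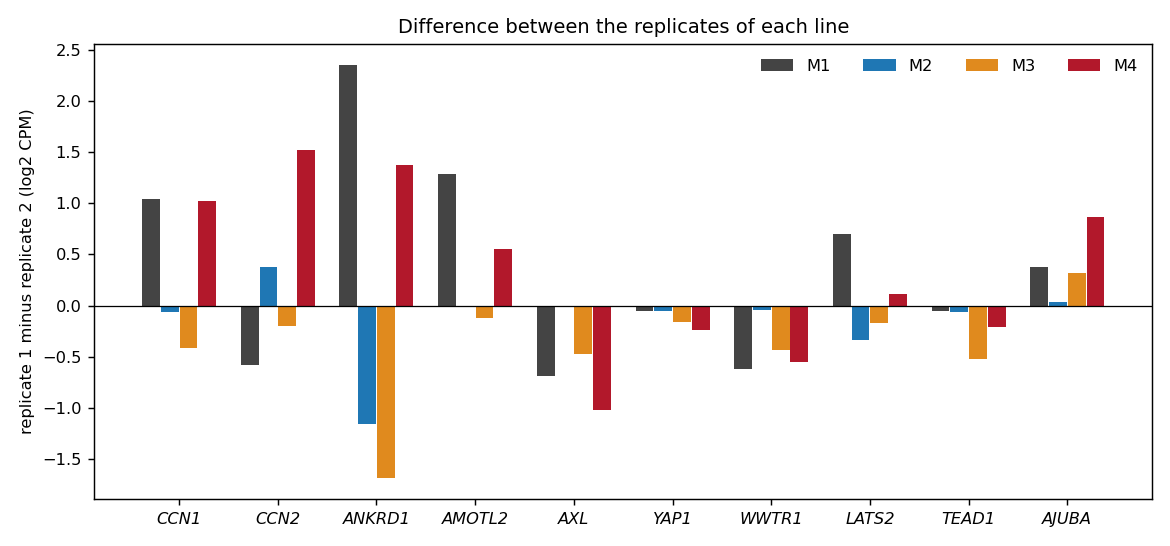
Replicate 1 minus replicate 2 of each line for the 10 genes, in log2 CPM. ANKRD1, with few counts, had the widest gap (2.35 in M1), CCN2 differed by 1.52 in M4, CCN1 by 1.04 in M1 and 1.02 in M4, AMOTL2 by 1.28 in M1, and YAP1 by less than 0.25 in every line.

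The spread between replicates was uneven over the 10 genes. It was widest for ANKRD1, whose few counts gave replicate differences on the log2 scale of 2.35 in M1 and 1.37 in M4, with -1.69 for the M3 pair and -1.16 for the M2 pair, and 3.48% of tested genes were at least as far apart in M1. YAP1 replicates differed by at most 0.24 on the log2 scale and WWTR1 replicates by at most 0.62. In M4 the replicates of CCN1 differed by 1.02 and those of AXL by -1.02, with replicate 1 higher for CCN1 and lower for AXL, and 12% and 12.1% of tested genes were at least as far apart. In M1 those of AMOTL2 differed by 1.28, as far as 11.5% of tested genes. Over the 8 libraries, which share lines and are not independent, the log2 levels of AMOTL2 and LATS2 had a Pearson r of 0.96, AMOTL2 and ANKRD1 0.90, CCN2 and AMOTL2 0.85, CCN1 and CCN2 0.45, CCN1 and AXL -0.87, and WWTR1 and YAP1 -0.20. Among well-expressed genes, the profile most like that of CCN2 was COPA (0.98), that of CCN1 was H2BC4 (0.98), that of ANKRD1 was TMEM41B (0.98) and that of YAP1 was SSR1 (0.98), out of 11943 to 11944 genes compared.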

How the data were processed

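Poly A+ RNA from 8 libraries was sequenced as paired ends. The authors trimmed reads with Trimmomatic, aligned them with STAR to hg19 and made expected counts per gene with RSEM on GENCODE v19, and these estimated counts were deposited without normalization. Tool versions and the use of strand are not given in the sources used here. Of the values 12.8% were not whole, and all were rounded. Totals of 69669945 to 107350288 leave counting error small except for genes with few counts, such as ANKRD1.

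Lines and replicates came from the sample labels. edgeR 4.0.16 in R 4.3.3 (quasi-likelihood, TMM, filterByExpr, robust, 1 coefficient per line, all 8 libraries) tested 18431 genes with Benjamini-Hochberg adjustment. Calls required an adjusted p under 0.05 and a log2 fold change beyond 1 in either direction. Standard errors are those implied by the F statistic. Biological replicates were 2 per line, and nothing in the labels says how they were separated. The procedure was tested on simulated data. The alternatives were DESeq2 1.42.0, other size factors and filters, total counts, a replicate block, only the lines compared, leaving out each library, exchanging M1 replicate 2 with M2 replicate 1, and, chosen after seeing the data, leaving out M2. Genes were named from fixed lists, as the 3 largest called changes in each direction in M4 and M3 against M1, with all measured effector, CCN and AXL family genes. For likeness, genes with a mean log2 CPM of at least 1 were ranked by Pearson r. The 10 genes and the lists were chosen with earlier results of these data known. Gene positions are those of GENCODE release 44 on GRCh37. Python 3.11.15 with pandas 2.3.3, numpy 2.4.6 and matplotlib 3.10.9 served for the remaining steps.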

Additional observations from a re-analysis of the deposited data

How the results depend on the processing

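Of the log2 fold changes recomputed for the 10 genes, 711 kept their direction and side of the threshold. Of the rest, 32 lost a call, 29 gained one and 28 changed sign, none of the last being a call. These numbers include a setting that called by adjusted p alone, with no fold limit. That setting is left out of the numbers of alternatives given for single genes. WWTR1 in M3 and M4 against M1 and CCN2 in M4 against M1 were called under all 13 alternatives. The number of the 10 genes called in M2 against M1 was 0, with 1 under DESeq2, 1 with no filter on low counts and 0 to 1 when single libraries were left out. In M3 against M1 it was 1, with 2 under DESeq2, 2 with no filter and 1 to 2 with libraries left out. In M4 against M1 it was 3, with 4 under DESeq2, no filter or a minimum of 100 counts, 2 under the exchange, 2 with only the 2 lines compared or without the M2 libraries, and 2 to 4 with libraries left out. In M3 against M2 it was 1, with 3 under DESeq2, 3 with no filter, 3 with only the 2 lines compared and 0 to 1 with libraries left out. In M4 against M2 it was 5, with 3 when M1 replicate 2 and M2 replicate 1 were exchanged and 0 to 3 with libraries left out. In M4 against M3 it was 2, with 4 under DESeq2, 5 with no filter, 1 under the exchange, 1 without the M2 libraries (chosen after seeing the data) and 0 to 2 with libraries left out. DESeq2 called 5 of the 10 higher and 1 lower in M4 against M2. The causes of these shifts in number were not tested.

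The replicate numbers did not pair the samples (correlations of deviations from -0.024 to 0.12), and a replicate block left 1 gene called in M4 against M3, with 4 in M4 against M1 and the other counts unchanged. With the exchange, calls over all genes went from 622, 2494, 3821, 765 and 1897 in M2, M3 and M4 against M1, M3 against M2 and M4 against M3 to 0, 219, 1559, 214 and 830. They rose to 1788, 1880 and 2916 in M2 against M1, M3 against M2 and M4 against M3 with no filter, and to 1273 and 1439 in M2 against M1 and M3 against M2 under DESeq2. Without single M2 replicates they were 2 and 0 in M2 against M1, 87 and 83 in M3 against M2, and 927 and 964 in M4 against M2 (2567 with both). Without single M4 replicates they were 598 and 1029 in M4 against M3. With only the 2 lines compared they were 1659 in M3 against M1, and without the M2 libraries 1225 in M4 against M3.

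The log2 fold changes that changed sign were those of genes not called. With total counts AJUBA turned to -0.0048 in M3 against M2, 0.0021 in M4 against M2 and 0.0069 in M4 against M3, and YAP1 to 0.07 in M4 against M3. With no filter TEAD1 turned to 0.0025 in M2 against M1. With the exchange CCN2 turned to 0.20 and TEAD1 to 0.061 in M2 against M1, and YAP1 to -0.065 in M3 and -0.12 in M4 against M1. With single libraries left out, M2 against M1 ranged from -5.94 to 0.0088 for ANKRD1, -0.21 to 0.42 for WWTR1 and -0.033 to 0.033 for TEAD1. M3 against M1 ranged from -2.61 to 2.01 for ANKRD1, -0.37 to 0.91 for AMOTL2, -0.010 to 0.16 for YAP1 and -0.49 to 0.22 for LATS2. M4 against M1 ranged from -0.34 to 0.88 for CCN1, -0.088 to 0.14 for YAP1 and -0.87 to 0.0085 for AJUBA. AJUBA ranged from -0.090 to 0.23 in M3 against M2, from -0.55 to 0.33 in M4 against M2 and from -0.63 to 0.25 in M4 against M3, and YAP1 from -0.16 to 0.067 in M4 against M3. With 2 libraries per line, small differences could be missed, and genes with few counts, such as ANKRD1, could not be ordered. Some differences under the fold limit still passed on p, such as TEAD1 in M4 against M1 (0.83, adjusted p from edgeR = 0.0131).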

Other observations

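The libraries of M1 and M4 differed between replicates in a similar way over the 10 genes. In both lines replicate 1 was higher than replicate 2 for CCN1, ANKRD1, AMOTL2, LATS2 and AJUBA and lower for AXL, YAP1, WWTR1 and TEAD1, so that 9 of 10 genes had the same direction, CCN2 being the exception. In the other 5 pairs of lines 5 to 8 of the 10 genes had the same direction, with 8 in M2 and M3. The genes are not independent of each other (AMOTL2 and LATS2 had a Pearson r of 0.96). The share of all tested genes with the same direction was not computed. Counts of VGLL1, a TEAD cofactor, were 108 and 8 in the M1 replicates and 111 and 4 in the M4 replicates, with at most 1 count in each M2 and M3 library. Over all tested genes the deviations of same-numbered M1 and M4 libraries had a correlation of -0.013. Single genes outside the 10, such as VGLL1, can still share the direction. The highest correlation of any pair was 0.12, in M3 and M4. The labels do not say that a replicate number marks a shared day or batch, and the part of such a shared factor in these values was not tested.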
